A study of Homo sapiens with 12 samples.

Results

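Prostaglandins are short-lived lipid signals made from arachidonic acid, and the 10 genes described here cover their production, breakdown and sensing. They were taken by symbol from the deposited count table, where all 10 were found among 56609 symbols, and all 10 were among the 21698 genes left after a filter on low counts. RNA-seq was done on A375, an established human melanoma cell line, in 4 groups of 3 libraries each. Wild-type cells and cells with the kinase gene MAPKAPK2 (MK2) knocked out by CRISPR/Cas9 were each given 500 nM JQ1 or DMSO for 48 h. JQ1 is a small molecule that blocks the acetyl-lysine pockets of BET proteins, and DMSO is its solvent. The sample titles call the DMSO cultures untreated, and the treatment field was followed. Whether the knockout line is 1 clone or a pool is not given in the sources used here. The series asked how loss of MAPKAPK2 bears on resistance to BET inhibitors.

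Synthesis starts when the cytosolic phospholipase PLA2G4A frees arachidonic acid from membranes. The cyclooxygenases PTGS1 (COX-1) and PTGS2 (COX-2) turn it into prostaglandin H2, and terminal synthases make the final products: PTGES, PTGES2 and PTGES3 make prostaglandin E2, and PTGIS makes prostacyclin. HPGD oxidises prostaglandins to inactive forms, and PTGER2 and PTGER4 encode the prostaglandin E2 receptors EP2 and EP4, which raise cyclic AMP. In melanoma, prostaglandin E2 from tumour cells is known for dampening immune cells around them. PTGS2 is an induced gene whose mRNA carries AU-rich elements in its 3′ UTR and is a textbook target of stabilisation by the p38 and MK2 kinases, whereas PTGS1 is usually described as constitutive.

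The feature through which MK2 is known to act on PTGS2 mRNA is its AU-rich run of ATTTA motifs, so the stretch with overlapping copies near the start of its 3′ UTR is shown. It lies at chr1:186674316-186674345 on the minus strand (GRCh38, GENCODE 29) and holds 3 overlapping copies, in capitals.
PTGS2 AU-rich site: atgatcatATTTATTTATTTAtatgaacca
The whole PTGS2 3′ UTR of 2562 bases held 22 ATTTA motifs, and 1.89% of 18893 protein-coding genes had at least as many. PTGER4 had 9, PTGES3 had 6, PTGER2 and HPGD 5 each, PLA2G4A 4, PTGS1 3, PTGIS 2, PTGES 1 and PTGES2 0, beside a median of 1 over genes. Per kb of 3′ UTR, PTGS2 (8.59) and PLA2G4A (8.46) were alike, and the median gene had 1.41. The longer motif TTATTTATT occurred once each in PTGS2 and PTGER2 and was present in 7.52% of genes.

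PTGES and PTGS1 are the members that fell furthest with JQ1, and PTGS2 is the cyclooxygenase that did not pass the test, so the promoters of these 3 genes are shown from 250 bases before to 50 bases after a RefSeq transcription start (GRCh38.p14). Capitals mark matches, on either strand, to the motifs listed after them.
PTGES, chr9:129752993-129753292, minus strand: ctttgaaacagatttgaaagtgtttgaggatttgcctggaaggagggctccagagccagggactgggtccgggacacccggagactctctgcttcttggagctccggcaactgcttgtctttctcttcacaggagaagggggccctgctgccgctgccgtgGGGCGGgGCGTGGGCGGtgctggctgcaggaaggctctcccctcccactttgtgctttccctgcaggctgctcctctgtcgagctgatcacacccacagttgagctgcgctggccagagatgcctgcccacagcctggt
PTGS1, chr9:122370283-122370582, plus strand: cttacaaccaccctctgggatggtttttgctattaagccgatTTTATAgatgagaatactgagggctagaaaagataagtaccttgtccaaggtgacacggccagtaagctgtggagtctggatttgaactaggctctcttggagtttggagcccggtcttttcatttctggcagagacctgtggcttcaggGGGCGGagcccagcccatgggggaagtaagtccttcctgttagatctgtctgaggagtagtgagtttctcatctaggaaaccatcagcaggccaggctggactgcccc
PTGS2, chr1:186680374-186680673, minus strand: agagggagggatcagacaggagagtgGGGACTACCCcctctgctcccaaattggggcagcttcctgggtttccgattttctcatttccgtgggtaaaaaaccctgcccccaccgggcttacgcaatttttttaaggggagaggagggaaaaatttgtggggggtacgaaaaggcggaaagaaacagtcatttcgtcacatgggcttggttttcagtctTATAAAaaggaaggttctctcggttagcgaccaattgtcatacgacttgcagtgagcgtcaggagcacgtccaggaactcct
PTGES held 2 GC boxes (GGGCGG), the second overlapping 1 EGR-type motif (GCGNGGGCG). The first PTGS1 start held 1 GC box and 1 TATAAA on the reverse strand, printed as TTTATA, and a second RefSeq start for this gene held 1 GC box. PTGS2 held 1 TATAAA near its start and 1 NF-kappaB-type motif (GGG, any 2 bases, T, any 2 bases, CC). Among 35116 RefSeq promoters of full length, with 1 chromosome left out, 45% held a GC box and 22% the NF-kappaB-type motif. In the same set 11.5% held TATAAA and 9.43% the EGR-type motif. TGACGTCA (1.85% of promoters), TGANTCA (7.71%) and CACGTG (7.26%) were also searched and had no match in these windows. Only these exact letters were searched, with N as any base, so variant forms of a motif could be present and not counted. RefSeq promoters were matched for 9 of the 10 genes; PTGIS had no entry. A match is a description of the letters and was not tested as a site.

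Total counts ran from 25316899 to 34594295 per library; libraries are numbered within a group as the labels number replicates. MAPKAPK2 itself was at 89.6 ± 2.20 CPM (counts per 1000000 of the scaled library; SD, n = 3, as throughout) in wild-type DMSO and 117 ± 4.31 in wild-type JQ1, against 12.4 ± 1.15 and 14.4 ± 1.61 in the knockout. Pairs of replicates differed by 3.32 to 7.58 in chi-square per degree of freedom, but by 25.5 to 26.8 in pairs with knockout JQ1 library 3. That library stands apart from the other 2 of its group, and without it the 5 comparisons below called 7, 6, 5, 3 and 0 of the 10 genes, against 7, 7, 5, 3 and 0 with it. SOX10, a melanocyte lineage factor, was at 437 ± 7.38 CPM in wild-type DMSO, while PMEL and MLANA were at 0.513 and 0.780. TYR and DCT were too low to test, and the 7 melanocyte markers, 5 of them tested, summed to 460 to 766 CPM. With JQ1, 3 of these 5 were called higher and 0 lower in each genotype. Of all tested genes, 16.9% rose in wild type and 16.7% in knockout. The 15 markers of fibroblasts, immune, endothelial and epithelial cells, of which 8 were tested, summed to 35.6 to 38.5 CPM in wild-type DMSO, 22.7 to 23.6 in wild-type JQ1, 28.8 to 33.9 in knockout DMSO and 14.2 to 16.6 in knockout JQ1. CDH1 was at 0 in every library. The 4 fibroblast markers alone, 3 of them tested, summed to 14.7 to 16.9 CPM in wild-type DMSO, 4.42 to 5.65 in wild-type JQ1, 12.3 to 13.6 in knockout DMSO and 2.47 to 3.73 in knockout JQ1. With JQ1 all 3 fell in wild type and 2 fell in knockout: LUM had log2 fold changes of -2.92 and -2.80 (adjusted p 6.91e-07 and 7.57e-07), PDGFRB -1.41 and -1.83 (2.24e-06 and 3.63e-07), and DCN -1.48 (0.00212) and, not called, -0.83 (0.0601). Among all tested genes, 16.2% fell with JQ1 in wild type and 17.8% in knockout. The macrophage marker CD68 had log2 fold changes of -0.01 in wild type (adjusted p 0.971) and -0.57 in knockout (0.00617). The 3 tested fibroblast markers had values in the direction of PTGES, PTGS1 and PLA2G4A in both genotypes, and CD68 fell in knockout alone. LYZ, the other tested immune marker, was called lower in both, from 2.44 to 0.856 CPM in wild type and 2.46 to 1.06 in knockout. Of the 2 tested endothelial markers, 1 was called lower in each genotype and 0 higher. KRT14, the 1 tested epithelial marker, was called lower in both, from 1.86 to 0.745 and 1.27 to 0.207 CPM. The part of these markers in the prostaglandin changes was not tested. In such bulk RNA, fewer cells with a transcript and less of it per cell cannot be told apart. With libraries scaled by their totals alone, the median of all genes shifted to -0.16 (log2) with JQ1 in wild type and -0.12 in knockout, from -0.03 and -0.0035. The split of all called genes between higher and lower then became 2298 to 5368 in wild type (3665 to 3522 as reported here) and 2409 to 5250 in knockout (3616 to 3856). For knockout against wild type in DMSO it became 516 to 1158 (754 to 964).

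JQ1 lowered the phospholipase PLA2G4A, the cyclooxygenase PTGS1 and the synthase PTGES in both genotypes, while MAPKAPK2 loss went with less PTGS1, PTGS2 and PTGES in both treatments. The receptor genes PTGER2 and PTGER4 were higher with JQ1, but PTGER2 was tested only through its JQ1 groups. The PTGER4 call was lost in 7 of 21 alternatives in wild type and 14 of 21 in knockout. In wild-type cells 7 of the 10 genes passed an adjusted p of 0.05 (edgeR quasi-likelihood test, Benjamini-Hochberg adjustment over all genes tested), where 33.1% of all tested genes did. The fallers were PLA2G4A, PTGS1 and PTGES (3 genes; 16.2% of all tested genes fell), and the risers PTGES2, PTGES3, PTGER2 and PTGER4 (4 genes; 16.9% rose). In knockout cells 7 again passed, against 34.4% of all genes. The 3 fallers were the same genes (17.8% of all genes fell), and PTGES3, PTGER2, PTGER4 and HPGD made up the 4 risers (16.7% rose). Both counts include PTGER2, which entered the test through the JQ1 groups alone; without it 6 of the other 9 genes passed in each genotype. Knockout against wild type gave 5 of 10 called in DMSO, against 7.92% of all genes, and 3 of 10 in JQ1, against 8.57%. Every one of these was lower in the knockout: PTGS1, PTGS2 and PTGES in both treatments, and HPGD and PTGES3 in DMSO; 4.44% and 5.56% of all genes were lower (3.47% and 3.01% higher). The median log2 fold change over the 10 genes was 0.05 and -0.07 for JQ1 in wild type and knockout, and -0.29 and -0.36 for knockout in DMSO and JQ1. The 5 calls in DMSO fell to 2 or 3 on leaving out any 1 of the 6 DMSO libraries and to 0 with limma on the authors' normalized signal, and the 7 in wild type fell to 4 with scaling by totals. Over all tested genes the medians lay between -0.03 and -0.0015. Each drug contrast shares libraries with each genotype contrast, so their directions are not independent of each other.

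**Figure D1:**
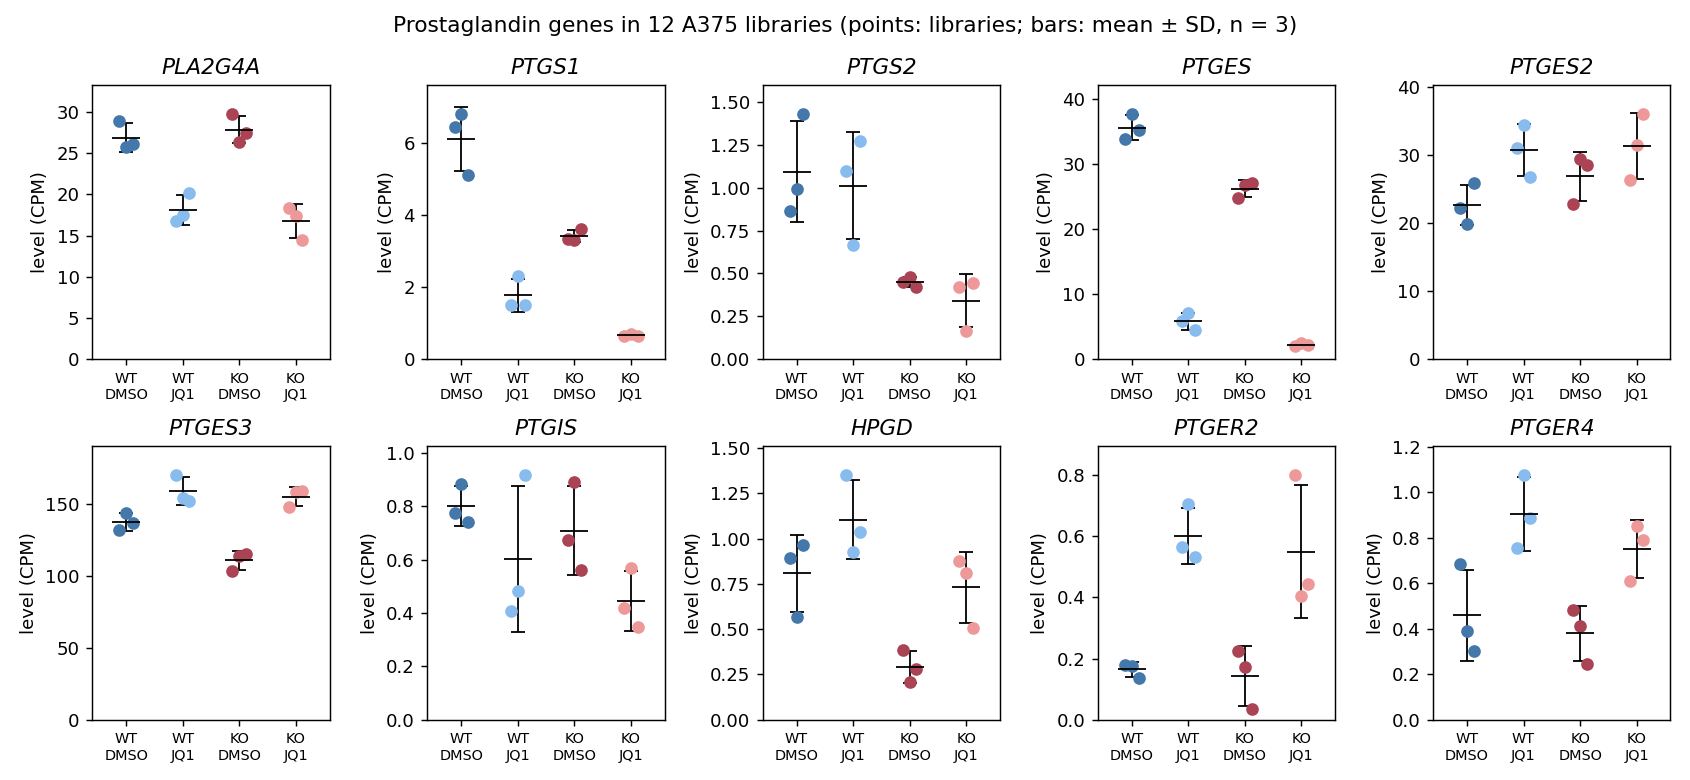
Level of each gene in CPM (vertical axes from 0, scaled per gene) in the 12 libraries. Points are libraries and bars the mean ± SD (n = 3). PTGES and PTGS1 step down with the drug and again with the knockout, reaching 2.20 and 0.657 CPM on average in knockout JQ1, while PTGER2 and PTGER4 are higher in both JQ1 groups.

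The levels spanned a wide range. Per kb of transcript, on the mean CPM scale, PTGES3 led in wild-type DMSO at 71.4 CPM per kb, followed by PTGES at 20.1, PTGES2 at 9.74, PLA2G4A at 9.35 and PTGS1 at 1.21. PTGES2 (8.55 to 11.1) and PLA2G4A (8.95 to 10.1) overlapped between libraries. Lower still were HPGD at 0.267, PTGS2 at 0.243, PTGIS at 0.144, PTGER4 at 0.119 and PTGER2 at 0.0690. Of these, HPGD (0.187 to 0.318) overlapped PTGS2 (0.192 to 0.317), and PTGER4 (0.0786 to 0.178) overlapped PTGIS (0.133 to 0.159). JQ1 moved PTGES from place 2 to place 4 in both genotypes, at 3.27 CPM per kb in wild type and 1.24 in knockout. PTGES2 then took place 2 at 13.2 and 13.4. These values rest on 1 chosen transcript per gene.

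**Figure D2:**
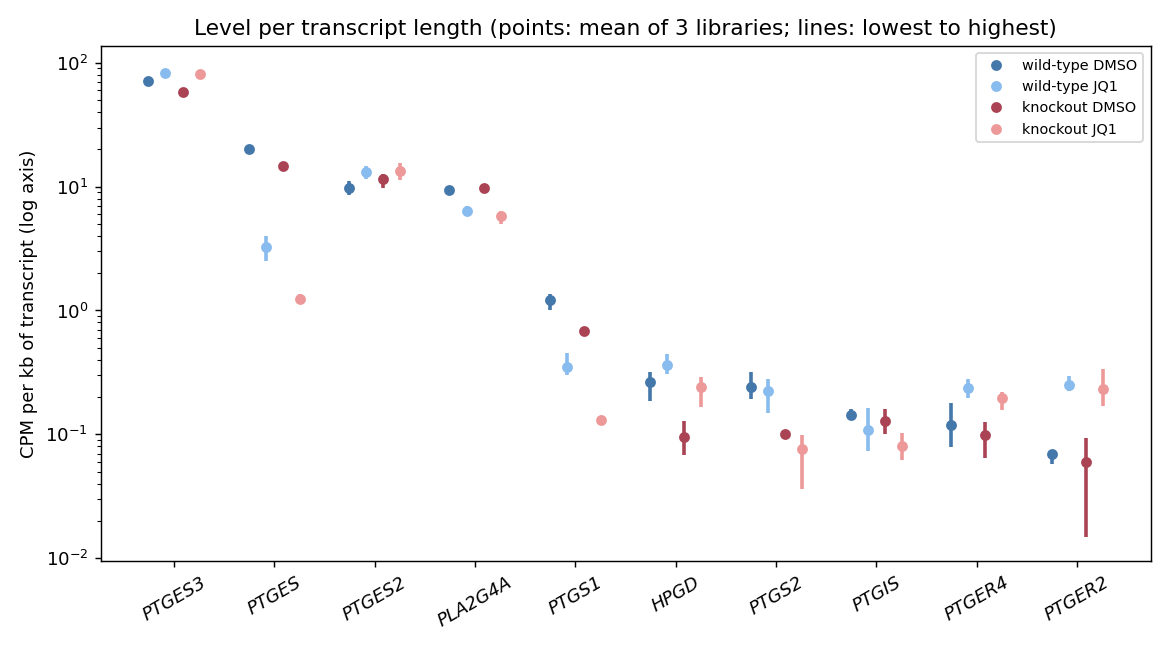
Mean CPM per kb of transcript (log axis) for each gene, ordered by wild-type DMSO, with lines from the lowest to the highest of 3 libraries in each group. PTGES3 stays on top in all 4 groups, and PTGES drops below PTGES2 and PLA2G4A in both JQ1 groups.

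PLA2G4A, the first step, sits 149 kb from PTGS2 on chromosome 1 with no protein-coding gene between them, at 1:186828953-186988981 (plus strand, 18 exons) against 1:186671791-186680427 (minus strand, 10 exons). Both lie on the side of MAPKAPK2 nearer the centromere, with 19.7 Mb from PLA2G4A to MAPKAPK2. PLA2G4A was at 28.9, 25.7 and 26.1 CPM in wild-type DMSO and at 16.7, 17.5 and 20.1 in wild-type JQ1. The knockout gave 29.7, 26.4 and 27.5 CPM in DMSO and 18.4, 17.3 and 14.4 in JQ1. The drug groups did not overlap the DMSO groups, and the genotypes overlapped within each treatment. JQ1 lowered it 1.48-fold in wild type (log2 fold change -0.57, SE 0.10, adjusted p 0.000452) and 1.67-fold in knockout (-0.74, SE 0.10, 4.35e-05). The knockout difference in DMSO was 0.05 (log2; 95% interval -0.16 to 0.26, adjusted p 0.840) and in JQ1 -0.12 (-0.34 to 0.10, 0.572). Its neighbour PTGS2, described below, passed for the genotype and not for the drug; the difference between these genes was not tested.

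PTGS1, the COX-1 gene at 9:122370530-122395703 (plus strand, 11 exons), changed along both axes. Its level was 6.44, 6.80 and 5.11 CPM in wild-type DMSO and 1.51, 2.30 and 1.51 in wild-type JQ1. In the knockout it was 3.33, 3.30 and 3.62 CPM in DMSO and 0.647, 0.690 and 0.633 in JQ1. No library of any group overlapped another group, and the order ran wild-type DMSO, knockout DMSO, wild-type JQ1, knockout JQ1. JQ1 lowered it 3.47-fold in wild type (log2 fold change -1.79, SE 0.17, adjusted p 1.88e-06) and 5.18-fold in knockout (-2.37, SE 0.21, 6.74e-07). Falls at least as large were called for 1.65% and 1.01% of all tested genes. The knockout was 1.79-fold lower in DMSO (-0.84, SE 0.16, 0.00388) and 2.67-fold lower in JQ1 (-1.42, SE 0.22, 0.000778). The authors' own normalization used a factor for PTGS1 that differed between groups, averaging 0.918 of the library's median factor in knockout DMSO and 1.16 in knockout JQ1. With limma on their normalized signal the DMSO difference became -0.70 and its call was lost (adjusted p 0.0933).

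PTGS2, the COX-2 gene, was scarce and followed the genotype. Its level was 0.864, 0.991 and 1.43 CPM in wild-type DMSO (29, 28 and 52 counts) and 1.10, 0.668 and 1.27 in wild-type JQ1 (35, 18 and 43 counts). Knockout libraries had 0.449, 0.481 and 0.421 CPM in DMSO (14, 14 and 12 counts) and 0.419, 0.162 and 0.443 in JQ1 (11, 4 and 14 counts). All 6 knockout libraries lay below all 6 wild-type libraries, and the treatments overlapped within each genotype. The knockout was 2.43-fold lower in DMSO (log2 fold change -1.28, SE 0.34, adjusted p 0.0285) and 2.91-fold lower in JQ1 (-1.54, SE 0.36, 0.0138). JQ1 gave -0.11 in wild type (95% interval -0.75 to 0.54, adjusted p 0.828) and -0.37 in knockout (-1.23 to 0.50, 0.528), and changes within these intervals were not detectable at this depth. The wild-type value turned positive without wild-type DMSO library 3 (0.15) or wild-type JQ1 library 2 (0.11).

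The DMSO call of PTGS2 was lost on leaving out wild-type DMSO library 2 (adjusted p 0.0612) or 3 (-1.02, 0.149), or knockout DMSO library 1 (0.0842), 2 (0.0783) or 3 (0.103), and with limma on the authors' signal (0.111). Its JQ1 call was lost without wild-type JQ1 library 3 (0.066) and with only the groups compared in the fit (0.0567). The antisense transcript PACERR, next to PTGS2, had 3 to 15 counts; whether the counting used strand is not stated. With these 12 libraries, the genes whose log2 CPM followed PTGS2 most closely were CCBE1 (Pearson r 0.945), ZNF536 (0.939) and AC023824.1 (0.937), out of 15410 genes ranked. Among the other members r was 0.514 with PTGS1, 0.438 with HPGD and 0.395 with PTGES. These correlations describe libraries that share 4 groups and carry no test.

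PTGES, the inducible prostaglandin E2 synthase at 9:129738331-129753047 (minus strand, 3 exons), had the widest drug response of the 10. Its level was 33.8, 37.6 and 35.3 CPM in wild-type DMSO and 5.90, 7.05 and 4.47 in wild-type JQ1. Knockout libraries had 24.7, 26.8 and 27.0 CPM in DMSO and 2.02, 2.39 and 2.18 in JQ1. The 4 groups did not overlap and kept the order seen for PTGS1. JQ1 left 16.2% of its level in wild type (log2 fold change -2.62, SE 0.12, adjusted p 1.74e-09) and 8.40% in knockout (-3.57, SE 0.14, 3.06e-10). Called falls of at least this size made up 0.576% and 0.35% of all tested genes.

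The knockout level of PTGES was 1.36-fold lower in DMSO (-0.44, SE 0.11, adjusted p 0.0217) and 2.62-fold lower in JQ1 (-1.39, SE 0.15, 3.68e-05). The DMSO call was lost without each wild-type DMSO library and each knockout DMSO library in turn (adjusted p 0.0511 to 0.104) and with limma on the authors' signal (0.152). The difference between the drug responses of the genotypes was -0.95 (SE 0.19, 95% interval -1.36 to -0.54). Its unadjusted p was 0.000186 and its adjusted p 0.0867, so it did not pass. It passed with DESeq2 (0.000728), with no low-count filter (0.000138) and without wild-type JQ1 library 3 (-1.11, 0.0177).

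No member passed in this comparison of drug responses by edgeR, where 0.134% of all tested genes did. At an unadjusted p of 0.05, 2 members passed (PTGES and PTGES3) beside 8.37% of all genes, and DESeq2 called 1 (PTGES). PTGS1 differed in the same direction as PTGES by -0.58 (95% interval -1.17 to 0.01, adjusted p 0.606), and PLA2G4A by -0.17 (-0.47 to 0.13, 0.790). For PTGS2 the value was -0.26 (-1.34 to 0.82, 0.935).

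**Figure D3:**
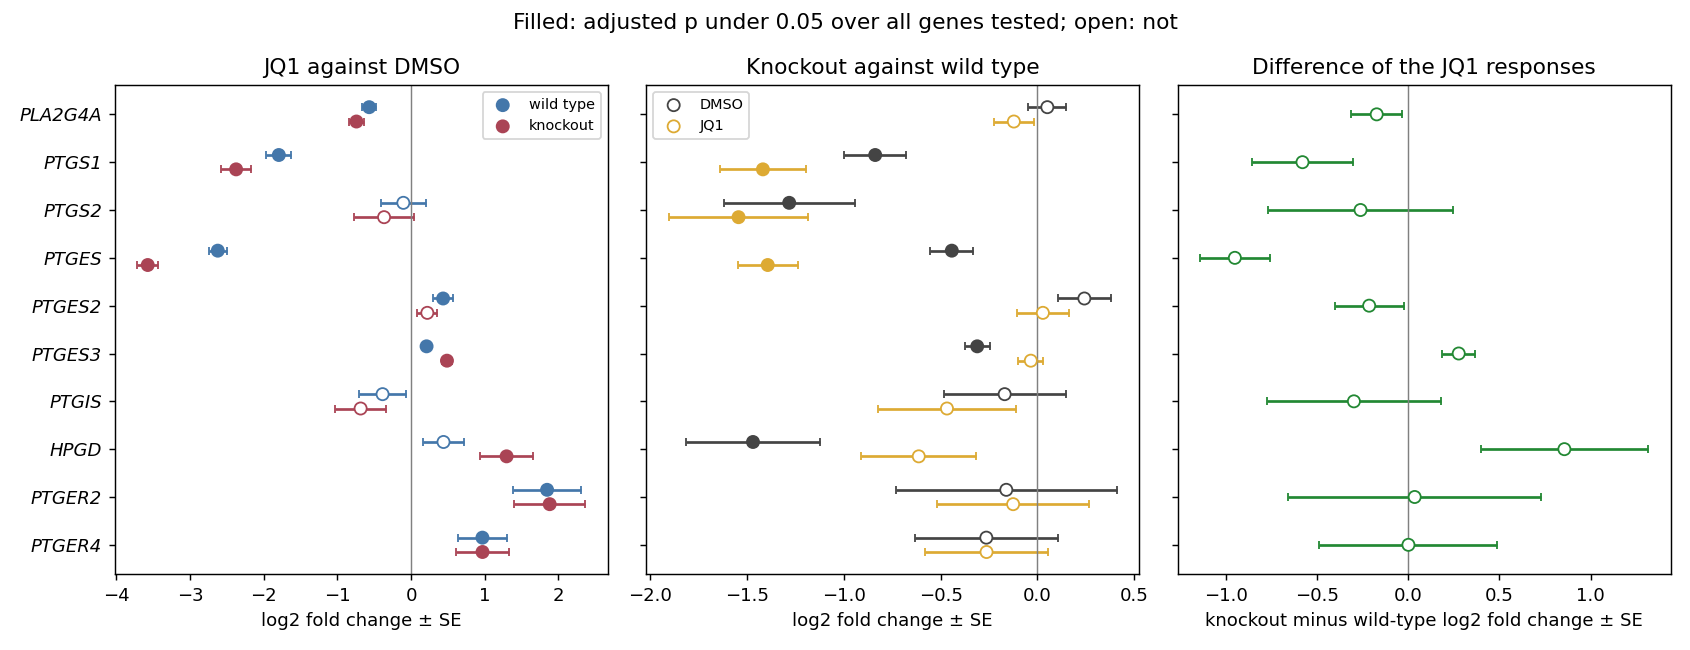
Log2 fold change ± SE of each gene for JQ1 against DMSO in both genotypes, knockout against wild type in both treatments, and the difference of the JQ1 responses. Filled points passed an adjusted p of 0.05. PTGES and PTGS1 lie left of 0 in all 3 panels, PTGS2 has filled points in the knockout panel alone, and no point of the third panel is filled.

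The other prostaglandin E2 synthases moved little, and upwards with JQ1. PTGES3 (12:56663341-56688408, minus strand), also known as the HSP90 co-chaperone p23, was at 132, 144 and 136 CPM in wild-type DMSO and 170, 154 and 152 in wild-type JQ1. Knockout libraries had 103, 114 and 115 CPM in DMSO and 147, 158 and 159 in JQ1. The JQ1 groups lay above the DMSO groups and overlapped each other, while knockout DMSO was the lowest group. JQ1 raised it 1.40-fold in knockout (log2 fold change 0.49, SE 0.06, adjusted p 3.35e-05) and 1.16-fold in wild type (0.21, SE 0.06, 0.0198). The knockout was lower in DMSO (-0.31, SE 0.06, 0.00642), and in JQ1 the difference was -0.03 (95% interval -0.17 to 0.10, 0.830). The difference of the drug responses was 0.28 (0.08 to 0.47, unadjusted p 0.00818, adjusted p 0.391). The wild-type rise was lost with scaling by totals (0.08, 0.367), with limma on the authors' signal (0.0586), and without wild-type DMSO library 1 (0.0813) or 3 (0.0566) or wild-type JQ1 library 1 (0.106). The DMSO difference was lost without wild-type DMSO library 2 (0.0519) and with limma on the authors' signal (0.107). The near-identical pseudogene PTGES3P1 had 4 to 19 counts per library, few beside PTGES3.

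PTGES2 (9:128120693-128128462, minus strand), a membrane-associated synthase, was at 22.3, 19.9 and 25.9 CPM in wild-type DMSO and 31.1, 34.4 and 26.7 in wild-type JQ1. The knockout gave 22.8, 29.5 and 28.5 CPM in DMSO and 26.3, 31.6 and 36.0 in JQ1. JQ1 separated the wild-type groups but not the knockout groups. The rise was 1.35-fold in wild type (log2 fold change 0.43, SE 0.13, adjusted p 0.0219), and the knockout value was 0.22 (95% interval -0.07 to 0.51, 0.235). Their difference was -0.21 (-0.62 to 0.19, 0.818), so the genotypes were not shown to differ. The wild-type call was lost with scaling by totals (0.30, 0.0847), with limma on the authors' signal (0.0868), and without wild-type DMSO library 1 (0.061) or 2 (0.0918) or wild-type JQ1 library 1 (0.0598) or 2 (0.103). The antisense transcript PTGES2-AS1 had 28 to 64 counts.

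PTGIS, the prostacyclin synthase (20:49503874-49568146, minus strand), passed in no contrast. Its level was 0.775, 0.885 and 0.742 CPM in wild-type DMSO and 0.408, 0.482 and 0.917 in wild-type JQ1. In the knockout it was 0.673, 0.893 and 0.562 CPM in DMSO and 0.419, 0.568 and 0.348 in JQ1. The groups overlapped throughout, apart from wild-type DMSO and knockout JQ1, which were not compared. The JQ1 values were -0.39 in wild type (95% interval -1.07 to 0.30, adjusted p 0.390) and -0.68 in knockout (-1.43 to 0.06, 0.148), so a fall as large as that of PLA2G4A was not detectable at this depth.

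HPGD, the prostaglandin-degrading dehydrogenase (4:174490177-174523154, minus strand), was lowest in knockout DMSO. Its level was 0.894, 0.567 and 0.962 CPM in wild-type DMSO (30, 16 and 35 counts) and 1.35, 0.928 and 1.04 in wild-type JQ1. The knockout gave 0.385, 0.206 and 0.281 CPM in DMSO (12, 6 and 8 counts) and 0.876, 0.811 and 0.506 in JQ1. Knockout DMSO overlapped no other group. It was 2.77-fold below wild-type DMSO (log2 fold change -1.47, SE 0.34, adjusted p 0.0142), and JQ1 raised it 2.46-fold in the knockout (1.30, SE 0.36, 0.0102). In wild type the JQ1 value was 0.44 (95% interval -0.17 to 1.05, 0.262), and under JQ1 the knockout difference was -0.61 (-1.25 to 0.02, 0.258). The difference of the drug responses was 0.86 (-0.13 to 1.84, 0.645), so a response particular to the knockout was not shown.

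Calls of HPGD depended on the normalization. Relative to the library median, the authors' factor for this gene ran from 0.477 to 1.55 among libraries. With those factors as offsets the knockout DMSO value became -1.07 (adjusted p 0.173) and the JQ1 value in knockout 0.90 (0.141). Limma on the authors' signal gave 0.228 and 0.155 for the same contrasts. The DMSO call was also lost without wild-type DMSO library 1 (0.0595) or 3 (0.0689) or knockout DMSO library 2 (0.0731) or 3 (0.0607).

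Both prostaglandin E2 receptor genes had few counts in DMSO and were higher with JQ1. PTGER2, encoding EP2 (14:52314305-52328606, plus strand), was at 0.179, 0.177 and 0.137 CPM in wild-type DMSO (6, 5 and 5 counts) and 0.565, 0.705 and 0.532 in wild-type JQ1 (18, 19 and 18 counts). In the knockout it was 0.224, 0.172 and 0.0351 CPM in DMSO (7, 5 and 1 counts) and 0.800, 0.406 and 0.443 in JQ1 (21, 10 and 14 counts). Every JQ1 library lay above every DMSO library. No DMSO library reached the 0.339 CPM (10 counts at the median library size) that the low-count filter asked of 3 libraries, and all 6 JQ1 libraries did, so PTGER2 was tested only because it was high with JQ1. Its difference is therefore given as a description and supports nothing further. The difference was 3.59-fold in wild type (log2 fold change 1.85, SE 0.46, adjusted p 0.00531) and 3.68-fold in knockout (1.88, SE 0.48, 0.00651), and with no low-count filter the log2 values were 1.86 (0.00144) and 1.88 (0.00239). The genotypes differed by -0.16 in DMSO (95% interval -1.38 to 1.06, 0.918) and -0.13 in JQ1 (-0.96 to 0.71, 0.903). The authors' factor for PTGER2 was the most variable of the 10 genes, from 0.302 to 1.43. The JQ1 calls passed with it, but among genes let in by the same filter, so this adds no support.

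PTGER4, encoding EP4 (5:40679498-40693735, plus strand), was at 0.686, 0.390 and 0.302 CPM in wild-type DMSO (23, 11 and 11 counts) and 0.754, 1.08 and 0.887 in wild-type JQ1 (24, 29 and 30 counts). Knockout libraries had 0.481, 0.412 and 0.246 CPM in DMSO (15, 12 and 7 counts) and 0.609, 0.852 and 0.791 in JQ1 (16, 21 and 25 counts). Within each genotype the JQ1 libraries lay above the DMSO libraries. The rise was 1.96-fold in wild type (log2 fold change 0.97, SE 0.33, adjusted p 0.0342) and 1.96-fold in knockout (0.97, SE 0.35, 0.0454). The genotypes differed by -0.26 in DMSO (95% interval -1.06 to 0.53, 0.773) and -0.26 in JQ1 (-0.94 to 0.41, 0.715). TTC33 overlaps PTGER4 on the other strand and had 380.9 to 733.4 counts, and the related pseudogene PTGER4P2-CDK2AP2P2 had 30 to 58, so its low counts are uncertain.

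Both PTGER4 calls were close to the threshold. The wild-type call was lost with DESeq2 (0.0599), with scaling by totals (0.0609), and without wild-type DMSO library 2 (0.104) or 3 (0.144) or wild-type JQ1 library 2 (0.119) or 3 (0.0673). The knockout call was lost with DESeq2 (0.0802), totals (0.0752), no filter (0.0622), only the groups compared (0.0581) and replicate block (0.053). It was also lost without wild-type DMSO library 2 (0.0553), wild-type JQ1 library 1 (0.0538), 2 (0.0538) or 3 (0.0569), knockout DMSO library 2 (0.0833) or 3 (0.158), or knockout JQ1 library 2 (0.115) or 3 (0.0981).

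Among other prostaglandin genes (20 genes, all in the table, 12 of them tested), JQ1 raised 3 and lowered 3 in wild type, and raised 3 and lowered 6 in knockout. Of all tested genes, 16.9% rose and 16.2% fell in wild type, and 16.7% rose and 17.8% fell in knockout. AKR1B1, an aldo-keto reductase that also makes prostaglandin F2 alpha, rose from 91.7 ± 2.76 to 132 ± 4.53 CPM in wild type (log2 fold change 0.52, SE 0.05, adjusted p 4.21e-06) and from 93.0 ± 1.29 to 123 ± 6.10 in knockout (0.40, SE 0.05, 4.15e-05). ABCC4, the MRP4 pump that exports prostaglandins, fell from 84.4 ± 4.48 to 58.1 ± 1.52 CPM in wild type (-0.54, SE 0.07, 1.96e-05) and from 77.2 ± 4.29 to 47.5 ± 2.98 in knockout (-0.70, SE 0.07, 1.47e-06). PTGR2, a prostaglandin reductase that acts after HPGD, fell as well, by 0.72 (SE 0.11, 0.000114) and 0.87 (SE 0.11, 2.45e-05). The median log2 fold change of the 12 was -0.21 in wild type and -0.26 in knockout. With scaling by totals the counts became 3 higher and 5 lower in wild type, and 1 higher and 7 lower in knockout. The knockout counts were 1 higher and 4 lower with only the groups compared, and 1 higher and 6 lower with no low-count filter. On leaving out a library they ran from 2 to 3 higher and 4 to 6 lower: 4 lower without knockout JQ1 library 2, and 2 higher without any 1 library except knockout JQ1 library 1 or 2.

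Of all tested genes, knockout against wild type called 7.92% in DMSO and 8.57% in JQ1. Of these 12 genes it called none in DMSO by edgeR (1 at an unadjusted p of 0.05, and 1 by DESeq2) and 1 in JQ1. That gene was ABCC4, at -0.29 (SE 0.07, adjusted p 0.0123), a call lost with only the groups compared (0.0774) and without wild-type JQ1 library 2 (0.0522). Among the 6 that fell with JQ1 in knockout were 3 picked out after their values were seen, the prostaglandin F synthase AKR1C3 (-0.73, adjusted p 0.000543), the thromboxane synthase TBXAS1 (-0.70, 0.0205) and the thromboxane receptor TBXA2R (-0.91, 0.0452). In wild type they were at -0.30 (0.0925), -0.40 (0.154) and -0.21 (0.642), and none of the 3 passed for a difference between the genotypes' responses (0.549, 0.844 and 0.717). The TBXAS1 call was lost without knockout DMSO library 1 (0.0686) or knockout JQ1 library 2 (0.0854) or 3 (0.0737), and that of TBXA2R in 14 alternatives, with adjusted p up to 0.149 without knockout JQ1 library 1. The 8 genes not tested were PTGDS, HPGDS, SLCO2A1, PTGER1, PTGER3, PTGDR, PTGFR and PTGIR, with 0 to 70 counts over all 12 libraries.

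Among arachidonate supply genes (14 genes, 9 tested), JQ1 raised 2 and lowered 2 of the 9 in each genotype. Of all tested genes, 33.1% were called in wild type and 34.4% in knockout. The list was not tested as a set. The count of fallers in wild type became 1 without wild-type DMSO library 2 or 3 or wild-type JQ1 library 3, and with limma on the authors' signal, and 3 without knockout JQ1 library 3 and with only the groups compared. ANXA1, annexin A1, a protein known to restrain phospholipase A2, was abundant and fell from 938 ± 37.4 to 565 ± 14.1 CPM in wild type (log2 fold change -0.73, SE 0.10, adjusted p 4.07e-05) and from 998 ± 62.2 to 483 ± 87.6 in knockout (-1.05, SE 0.10, 1.26e-06). PLA2G15, a lysosomal phospholipase, rose by 0.68 (SE 0.10, 6.71e-05) and 0.86 (SE 0.10, 6.93e-06). LPCAT3, which puts arachidonate back into phospholipids, rose by 0.55 (SE 0.08, 7.28e-05) and 0.45 (SE 0.08, 0.000342). The knockout lowered MGLL, the monoacylglycerol lipase that can release arachidonate from endocannabinoids, in DMSO by a log2 fold change of -0.37 (SE 0.10, 0.0264). That call was lost without wild-type DMSO library 2 (0.106) or 3 (0.106) or knockout DMSO library 1 (0.128) or 2 (0.0735), with limma on the authors' signal (0.152) and with their factors as offsets (0.105). In JQ1 the knockout called none of the 9 by edgeR (2 at an unadjusted p of 0.05, and none by DESeq2). There, 2 were lower without knockout JQ1 library 1 and 2 with no low-count filter. Of all tested genes, 7.92% were called for the knockout in DMSO, where MGLL was the 1 call of the 9, and 8.57% in JQ1. Median log2 fold changes of the 9 with JQ1 were -0.03 and -0.05, and scaling by totals gave 4 lower in wild type and 3 in knockout.

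**Figure D4:**
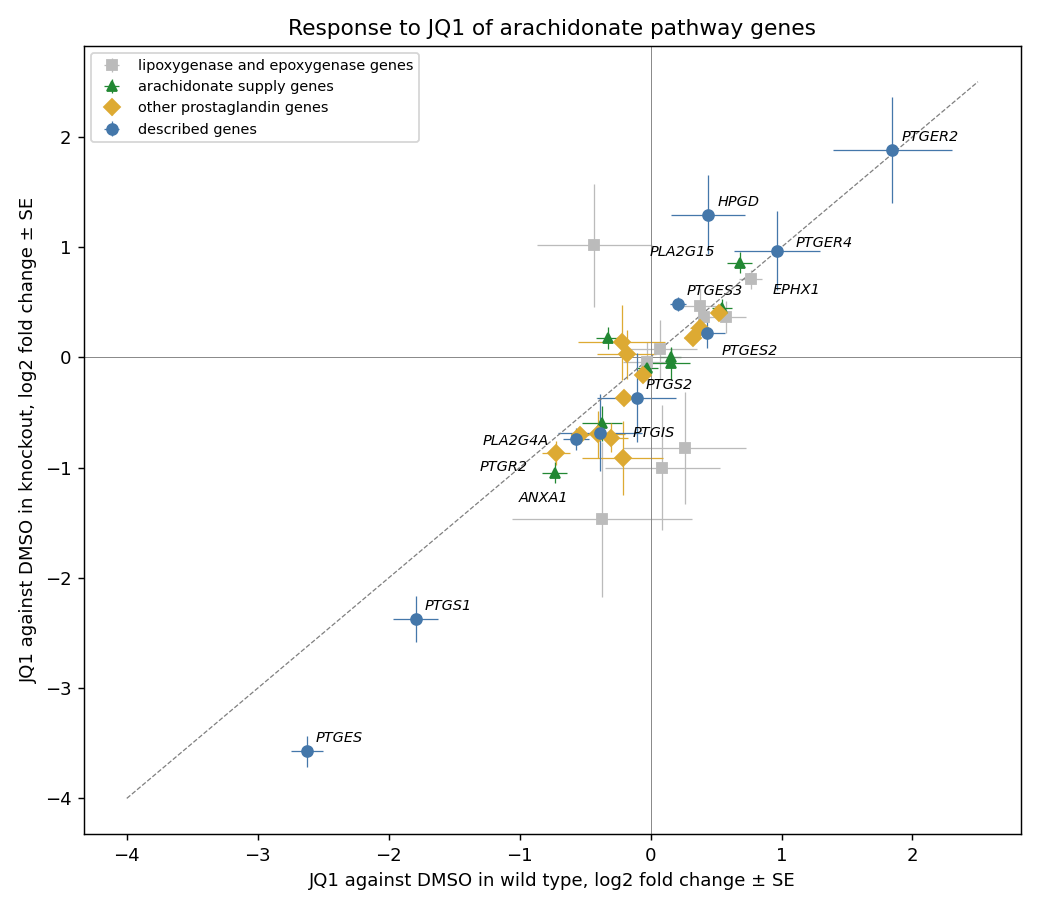
Log2 fold change ± SE with JQ1 in wild type (horizontal) and knockout (vertical) for the 10 genes and the tested genes of 3 other lists of the arachidonate pathway; the dashed line marks equal responses. PTGES and PTGS1 lie farthest to the lower left, at -2.62 and -1.79 in wild type, and PTGER2 farthest to the upper right.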

How the data were processed

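RNA was measured in 12 libraries of A375 cells. The deposited files are estimated counts per gene symbol, made by the authors, and a table of normalized signal; each signal value is a rounded count over a scaling factor that differs by gene and by library. Per the submitters' processing notes, Trim Galore, cutadapt, FastQC, MultiQC, kallisto, DESeq2 and GRCh38.p10 were used, with no role or order given. Per the labels' protocols, libraries were directional and depleted of ribosomal RNA; whether counting used the strand is not given in the sources used here. Estimated counts let reads be shared among overlapping or near-identical transcripts.

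Table columns were matched to samples by name, and groups came from the sample labels. Estimated counts were rounded, since testing had been planned for counts, and filtered with filterByExpr over the 4 groups. They were then scaled with TMM (factors 0.926 to 1.06) and fitted in 1 edgeR quasi-likelihood model with a term per group, using R 4.3.3 with limma 3.58.1 and edgeR 4.0.16. The Benjamini-Hochberg adjustment covered 21698 genes, and calls needed an adjusted p under 0.05. SE was computed as the size of the unshrunk log2 fold change over the root of F, intervals are at 95%, fold changes use a prior count of 0.125, and CPM is per 1000000 of the scaled library. Total counts per library ran from 25316899 to 34594295, so a gene at 1 CPM rests on few reads. No 2 libraries were identical. Nothing says that replicates were separate cultures, so p-values measure the spread between these samples.

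Contrasts were the drug effect within wild type and within knockout, the genotype effect within DMSO and within JQ1, and the interaction, which is the knockout's drug response minus that of the wild type. The test was checked on simulated counts. Named genes were the 10 members, MAPKAPK2, up to 3 called genes per list and contrast with the smallest adjusted p, and the 3 genes closest to PTGS2 in log2 CPM (prior count 2, mean of at least 1 CPM). Other genes (pseudogenes and antisense or overlapping transcripts of members, AKR1C3, TBXAS1, TBXA2R and single cell type markers) were chosen after their values were seen. Lists were other prostaglandin genes, arachidonate supply genes, lipoxygenase and epoxygenase genes, and cell type markers. The members and lists were chosen with earlier results of these data known. Older symbols were matched through RefSeq. Positions, transcript lengths and 3′ UTRs came from GENCODE 29, promoters from RefSeq. The alternatives were DESeq2 1.42.0, limma-voom, scaling by totals, other filters, a threshold of 0.01, only the groups compared, a replicate block, limma on the authors' signal (log2 with a pseudocount of 0.5), each library left out, and, chosen after seeing the data, the authors' factors as offsets.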

Additional observations from a re-analysis of the deposited data

How the results depend on the processing

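Over 22 alternatives and 50 combinations of gene and contrast, 955 values kept direction and side of the threshold, 65 lost a call, 3 gained one and 36, none of them called, changed sign. Of 29 values of other named genes, none changed sign, and LTB4R, MGLL, ABCC4, TBXAS1 and TBXA2R lost calls in 43 recomputations. The JQ1 falls of PTGES, PTGS1 and PLA2G4A in both genotypes, the rise of PTGES3 in the knockout and the lower PTGES and PTGS1 in knockout JQ1 passed in all 22. PTGER2 with JQ1 passed in each of the 21 that tested it, which shows no stability where the low-count filter let it in through its JQ1 groups alone. Of the 10 genes, JQ1 in wild type called 4 at an adjusted p of 0.01 and 4 with scaling by totals, against 7; JQ1 in knockout called 4 with a mean of at least 1 CPM, which left PTGS2, PTGER2, PTGER4, HPGD and PTGIS untested. Knockout in DMSO called 2 at 0.01, 3 with that filter and 0 with limma on the authors' signal, against 5. The interaction called 1 with DESeq2 and 1 with no filter. With a library left out, counts ran from 5 to 7 (JQ1 in wild type), 6 to 7 (JQ1 in knockout), 2 to 5 (knockout in DMSO), 2 to 3 (knockout in JQ1) and 0 to 1 (interaction); the cause was not tested, though fewer samples enter each fit.

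Changed signs, all between uncalled values, were as follows. PTGES2 in knockout JQ1 was -0.0035 with totals, -0.012 with limma on the authors' signal and -0.013 with their factors as offsets. The PTGER4 interaction was -0.017 with no filter, -0.035 with limma-voom, -0.038 with the signal and -0.0058 with offsets. PTGER2 became 0.26 (signal) and 0.44 (offsets) in knockout DMSO, 0.0041 (offsets) in knockout JQ1, and -0.32 (signal) and -0.43 (offsets) in the interaction. With a library left out, PTGER4 ran from -0.50 to 0.16 in knockout DMSO and -0.42 to 0.24 in the interaction. PTGER2 ran from -0.62 to 0.28 in knockout DMSO, -0.49 to 0.039 in knockout JQ1 and -0.40 to 0.50 in the interaction. PTGS2 ran from -0.30 to 0.15 with JQ1 in wild type and -0.52 to 0.045 in the interaction. PTGES3 ran from -0.065 to 0.018 and PTGES2 from -0.087 to 0.14 in knockout JQ1, and PTGIS from -0.52 to 0.16 in the interaction.

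Replicate numbers did not pair the samples: 18 same-numbered pairs had correlations of -0.12 to 0.08, and 2 of 12 libraries matched their own number best. With the replicate block the counts were 7, 6, 5, 3 and 0 in the order above; PTGER4 in the knockout (1.00, adjusted p 0.053) was the member that lost its call. Depth limits PTGS2, HPGD, PTGIS, PTGER2 and PTGER4, with 1 to 52 counts per library.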

Other observations

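The lipoxygenase and epoxygenase branches use the same arachidonic acid. Of 18 such genes, all in the table, 10 were tested, and JQ1 raised 3 and lowered none in each genotype by edgeR (4 passed an unadjusted p of 0.05 in each, and DESeq2 gave the same counts). That share is near the 33.1% and 34.4% of all tested genes called in wild type and knockout. The wild-type count was 4 without knockout DMSO replicate 1 or knockout JQ1 replicate 3, with no low-count filter and with only the groups compared. In knockout it was 3 higher and 1 lower with no low-count filter. With scaling by totals, a threshold of 0.01, the replicate block, limma on the authors' signal or their factors as offsets, it was 2 higher and 0 lower. The knockout count was 4 without knockout JQ1 replicate 1, 2 higher and 1 lower without wild-type DMSO replicate 1 and with only the groups compared, and 2 higher with none lower for 7 other libraries left out singly (replicate 1 of DMSO and replicate 3 of JQ1 in the knockout; in wild type, DMSO replicates 2 and 3 and any with JQ1). EPHX1, an epoxide hydrolase, went from 20.7 ± 0.352 to 35.2 ± 2.06 CPM in wild type (means and SDs of 3 libraries; a log2 fold change of 0.76 with SE 0.08, adjusted p 7.49e-06) and from 14.6 ± 1.09 to 23.9 ± 2.44 in knockout (0.71, SE 0.09, 1.87e-05). LTA4H, the enzyme that makes leukotriene B4, went from 89.0 ± 3.23 to 118 ± 2.19 CPM in wild type (0.41, SE 0.05, 4.59e-05) and from 114 ± 2.71 to 147 ± 7.87 in knockout (0.37, SE 0.05, 9.45e-05). The leukotriene B4 receptor gene LTB4R2 rose in wild type (0.58, SE 0.15, 0.00647). LTB4R, which encodes the other such receptor, passed in knockout (0.46, SE 0.17, 0.0471), but 14 of 22 alternatives lost that call, among them leaving out knockout DMSO replicate 1 (0.29, adjusted p 0.198) or knockout JQ1 replicate 3 (0.27, 0.231). The median log2 fold change of the 10 was 0.18 in wild type and 0.22 in knockout.

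EPHX1 was lower in the knockout and LTA4H higher, in both treatments. In each treatment they were the 1 lower and the 1 higher call among the 10 tested genes of this list. Among all tested genes, 7.92% were called in DMSO and 8.57% in JQ1. EPHX1 had a log2 fold change of -0.50 in DMSO (SE 0.09, adjusted p 0.00181) and -0.56 in JQ1 (SE 0.08, 0.000586). LTA4H had 0.35 in DMSO (SE 0.05, 0.000787) and 0.31 in JQ1 (SE 0.05, 0.00176). These 4 calls held in all 22 alternatives, and the groups compared did not overlap. No gene of this list, of the other prostaglandin genes or of the arachidonate supply genes passed for a difference between the genotypes' drug responses by edgeR or DESeq2 (0, 1 and 2 at an unadjusted p of 0.05). Of all tested genes, 0.134% passed by edgeR and 8.37% had an unadjusted p under 0.05. Lists this short would rarely hold a call at that share.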
